A study of Mus musculus with 12 samples.

Results

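The genes described here are the 36 genes of glycolysis and of the transcriptional response to low oxygen listed in the following paragraphs, and they were taken by symbol from a table of 35602 gene symbols. They comprise 3 transporters of glucose or lactate, 16 glycolytic enzymes counting lactate dehydrogenase, 3 enzymes that regulate the flux through the pathway, 5 oxygen-dependent dioxygenases, 3 genes for secreted or surface proteins, and 6 genes of mitochondrial turnover and stress. RNA came from cultured fibroblasts of mouse embryos (MEFs), a connective tissue cell, in a series on isoforms of EZH2, the catalytic subunit of Polycomb repressive complex 2. There were 4 groups of 3 libraries: the Ezh2a mutant (Ezh2amut), wild-type littermates of that line, the Ezh2b mutant (Ezh2bmut), and wild-type littermates of that second line. All cells were grown in high-glucose DMEM with fetal bovine serum, penicillin and streptomycin. The sources give no age, oxygen level or passage, and do not say which change in sequence each mutation makes or whether a group's replicates came from different embryos or cultures. The p-values thus cover only the spread among these libraries, some of which may be technical.

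Glycolysis converts glucose to pyruvate in the cytosol, and cells that do not oxidise the pyruvate reduce it to lactate and export it. When oxygen is scarce, prolyl hydroxylases of the Egln family no longer mark the alpha subunits of hypoxia-inducible factor (HIF) for destruction, and HIF then binds DNA at a short core motif near its target genes. Most glycolytic enzymes, glucose transporters and several genes of oxygen sensing, mitophagy, matrix hydroxylation and vessel growth are textbook HIF targets, and proliferating fibroblasts in culture run glycolysis at a high rate also with oxygen present.

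Total counts were 28811482 to 54070380 per library, and all 36 genes passed the filter on low counts that left 15708 genes for testing. Ezh2 itself, the check of the labels, stood at 30.5, 30.4 and 30.1 CPM in the wild type and 14.2, 15.2 and 14.2 CPM in the mutant. Ezh2 was thus at less than the lowest wild-type library in every Ezh2a mutant library (log2 fold change -1.07 with SE 0.05, adjusted p = 3.4e-11). In the other line Ezh2 stood at 33.8, 35.8 and 35.3 CPM in the wild type and 35.4, 33.6 and 36.4 CPM in the mutant, and the groups overlapped (log2 fold change 0.00 with SE 0.05, adjusted p = 0.969). The summed level of the gene therefore separates the Ezh2a groups and not the Ezh2b groups. Fibroblast markers, 10 genes that include Col1a1, Pdgfra and Thy1, held 5.54% to 6.39% of the counts in every library, and of 6 erythroid markers Hbb-bt was at 0 in all 12 libraries. Ezh2b wild-type replicate 3, the deepest library, stood apart from its group: the mean chi-square per gene was 12.2 and 13.4 against replicates 1 and 2, and at most 4.94 in any other pair within a group. Calls on members that turned on it are given with and without it.

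Levels of genes were compared with each other as CPM (counts scaled to a common library size, with TMM factors) per kb of exon. This covered 35 genes with a single entry in the annotation. The length was the union of all annotated exons of a gene, for example 2244 bases for Pgk1 and 5379 for Eno1. Where a gene's RNA uses only part of these exons, its level per kb is understated. The order of genes and the shares within pairs thus depend also on the annotation. Gapdh, which makes the first high-energy phosphate of the lower pathway, was the highest at 431 CPM per kb averaged over the 12 libraries. Pkm, pyruvate kinase, followed at 381, Ldha, lactate dehydrogenase, at 272, Eno1, enolase, at 266 and Pgk1, phosphoglycerate kinase, at 256 CPM per kb. Eno1 and Ldha exchanged places between groups: Ldha was at 280.1 ± 1.76 and Eno1 at 261 ± 8.43 CPM per kb in the Ezh2a wild type (SD, n = 3), but at 245 ± 7.78 and 248 ± 4.85 in its mutant, which is within their spread. Pgk1 stood above Eno1 in the Ezh2a wild type, at 274 ± 3.56 CPM per kb, and below it in the means of the other 3 groups. Tpi1 and Pgam1 formed the next pair at 151 and 148 CPM per kb, and the libraries of the pair overlapped in the Ezh2b wild type, at 159 ± 7.86 and 150.1 ± 2.59. The order of the pair was the reverse in the Ezh2b mutant, with Pgam1 at 154 ± 3.69 and Tpi1 at 146 ± 3.14. The upper pathway was lower, with Gpi1 at 62.2, Pfkl at 22.0, Hk1 at 14.5 and Hk2 at 7.96 CPM per kb. The hypoxia-response genes spread from P4ha1 at 85.1 CPM per kb down to Car9 at 0.999, the lowest of the 35 genes by the mean over the 12 libraries. The lowest gene by group was Car9 in both wild types, Ankrd37 in the Ezh2a mutant (1.34 CPM per kb, with Car9 at 1.48) and Aldoc in the Ezh2b mutant (0.715, with Car9 at 0.750).

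**Figure D1:**
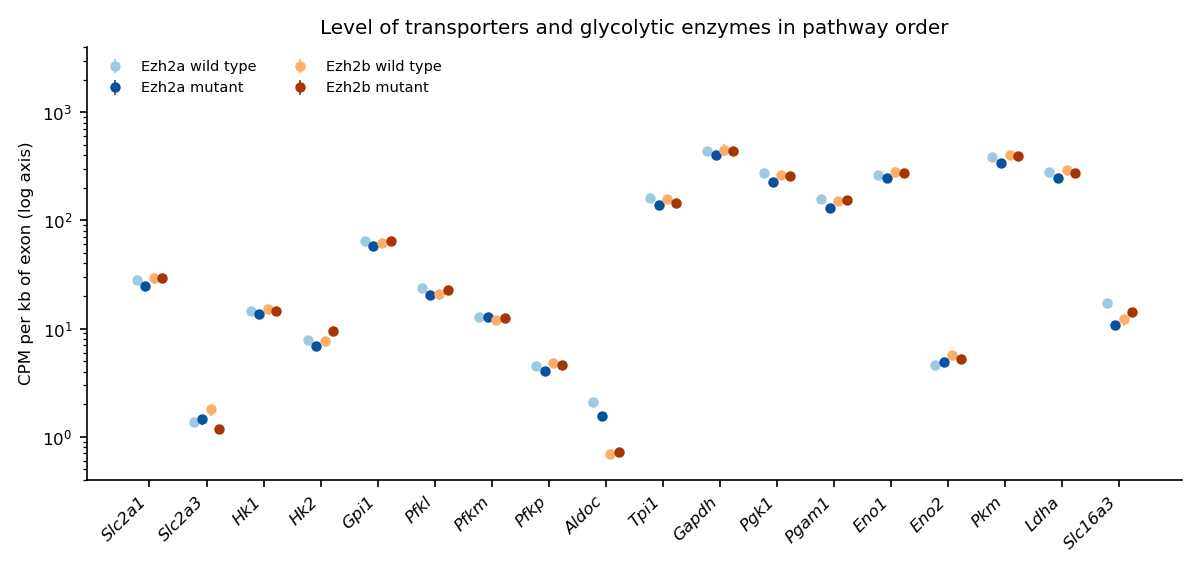
Level of 18 transporters and enzymes in pathway order (x axis) as CPM per kb of exon on a log axis (y axis). Points are group means and bars the SD over 3 libraries; Gapdh reaches 431 CPM per kb on average and Aldoc 1.26.

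Within 2 pairs of related members, 1 gene held nearly the whole level of the pair. Eno1 held 98.3% ± 0.11 of the level per kb of Eno1 and Eno2 in the Ezh2a wild type, and Slc2a1 held 95.4% ± 0.60 of the level of the glucose transporters Slc2a1 and Slc2a3 (SD, n = 3). Eno3, an enolase outside the 36 genes, averaged 27.5 ± 0.92 CPM there and is left out of this share. The level of the hexokinases Hk1 and Hk2, the second of them inducible, was more evenly divided. The Hk2 share of the pair was 35.2% ± 0.79 in the Ezh2a wild type, 33.5% ± 0.60 in the Ezh2a mutant, 33.3% ± 0.78 in the Ezh2b wild type and 39.2% ± 0.76 in the Ezh2b mutant. The lowest Ezh2b mutant library, at 38.3%, lay above the highest library of the other 3 groups, at 35.8%. These shares leave out Hk3, a hexokinase outside the 36 genes that averaged 11.7 ± 1.27 CPM in the Ezh2a wild type, 1.06 ± 0.28 in the Ezh2b wild type and 4.63 ± 0.72 in the Ezh2b mutant.

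In the Ezh2a mutant the members were lower as a group. Of 36 members 22 fell and 1, Adm, rose, while 13 did not pass the test. Of all tested genes 10.2% fell and 9.61% rose. The median log2 fold change was -0.19 over the members and 0.00 over all tested genes. The falls were small, between log2 fold changes of -0.15 and -0.70. In all 22 members that fell, every mutant library lay below every wild-type library. Counting members whatever their p, the groups stood apart with the mutant lower in 27 and with the mutant higher in 2, Adm and Car9, beside 19.4% and 18.3% of all tested genes. Summed over the 16 enzymes, the share of all counts was 0.923%, 0.916% and 0.919% in the wild type and 0.858%, 0.832% and 0.853% in the mutant, so that the groups did not overlap. Summed markers of 3 other cell types were also lower in this mutant, without overlap. Of the epithelial markers 3 of 4 tested fell, with a summed share of 0.00252% to 0.00260% of counts in the wild type and 0.00091% to 0.00100% in the mutant. Of the skeletal muscle markers 3 of 4 tested fell, from 0.0119% to 0.0127% down to 0.0042% to 0.0045%, with Myod1, Myog and Myh3 at 0 in both groups. Of 3 tested endothelial markers Kdr fell (-0.95 on the log2 scale) and Tek rose (0.80), the summed share was 0.00127% to 0.00142% and 0.000856% to 0.000959%, and Tie1 was at 0 in the wild type. Of 10 fibroblast markers 3 rose and 2 fell. Of 16 macrophage and leukocyte markers 2 rose and 3 fell, and their summed share was 0.172% to 0.177% and 0.163% to 0.174%. The part of these cells in the members' falls was not tested. In RNA from a whole culture, fewer cells of a type and less RNA per cell cannot be told apart.

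**Figure D2:**
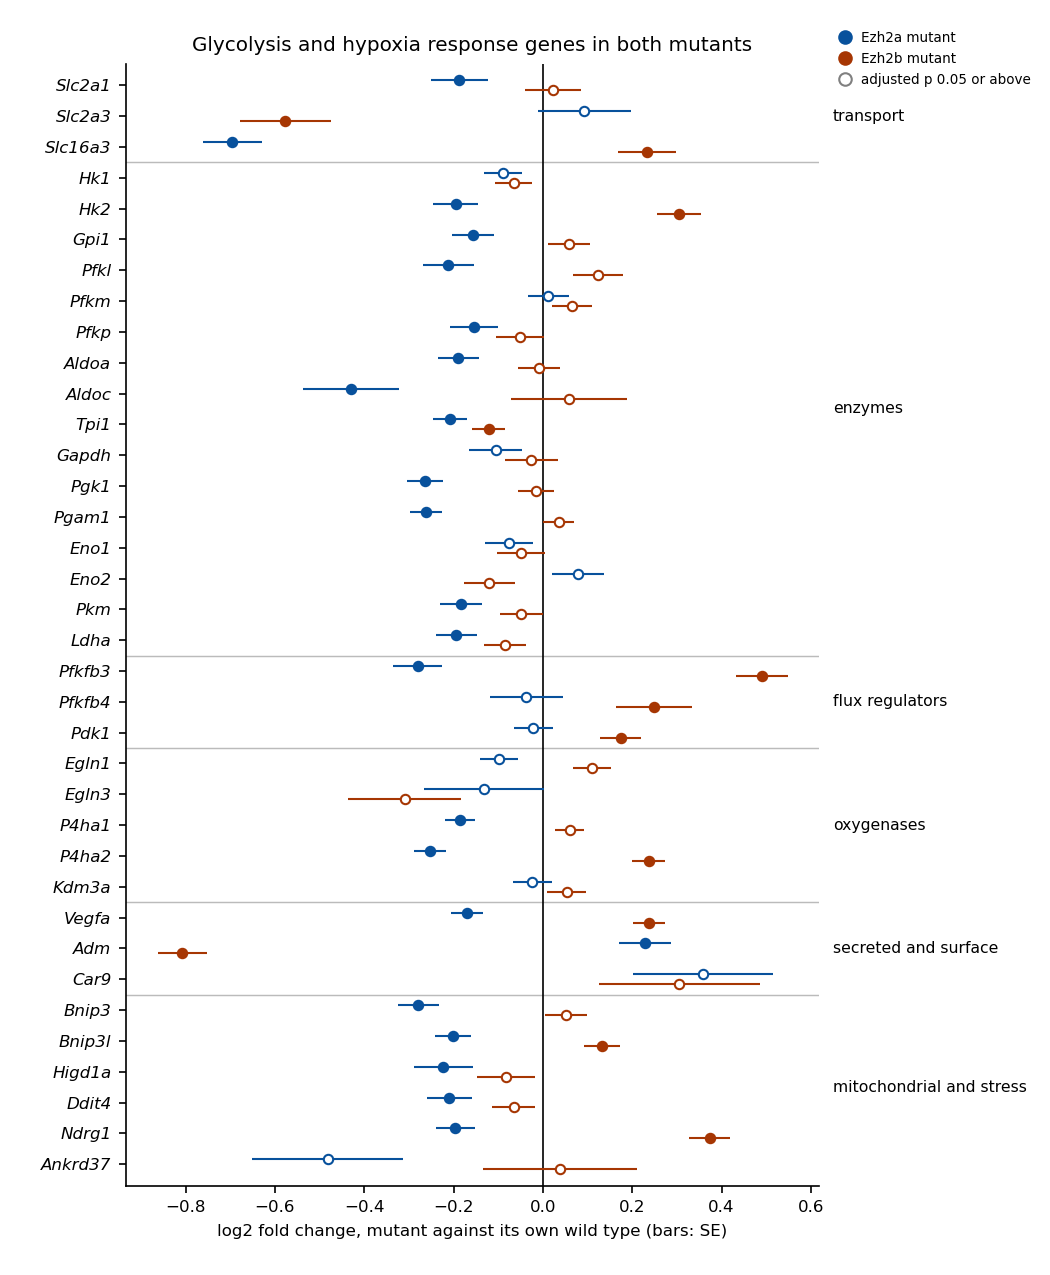
Log2 fold change of each of the 36 members in the Ezh2a and the Ezh2b mutant against its own wild type (x axis; bars are the SE), with genes on the y axis grouped by role. Filled points have an adjusted p under 0.05; 22 Ezh2a points are filled below 0 and 1 above, and 3 and 9 Ezh2b points.

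The largest change among the members was in the RNA of a lactate transporter. Slc16a3, the monocarboxylate transporter MCT4 that exports lactate from glycolytic cells, stood at 93.2, 91.3 and 92.0 CPM in the wild type and 55.4, 54.0 and 61.4 CPM in the mutant. The mutant libraries lay far below the wild type, and Slc16a3 fell by 38.2% (log2 fold change -0.70 with SE 0.07, adjusted p = 2.5e-07; edgeR's quasi-likelihood test, Benjamini-Hochberg over all tested genes, as for every adjusted p here). Slc2a1, the basal glucose transporter GLUT1, was at 102, 94.7 and 101 CPM in the wild type and 86.0, 83.2 and 92.0 CPM in the mutant. Slc2a1 fell (log2 fold change -0.19 with SE 0.06, adjusted p = 0.0433), but the call was lost when any of 4 of the 6 libraries was left out (Ezh2a wild-type replicates 1 and 3, mutant replicates 1 and 2; adjusted p up to 0.198). Slc2a3, the high-affinity transporter GLUT3, was at 9.14, 10.9 and 9.49 CPM in the wild type and 10.7, 9.20 and 11.4 CPM in the mutant, with overlapping groups (log2 fold change 0.09 with SE 0.10, adjusted p = 0.611).

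Of the 16 enzymes 11 fell, and in 14 every mutant library was below every wild-type library. In the upper, ATP-consuming steps, Hk2, which phosphorylates glucose at the mitochondrial surface, was at 47.8, 46.3 and 47.5 CPM in the wild type and 41.1, 41.3 and 41.1 CPM in the mutant. The 3 mutant libraries were almost equal and below the wild type (log2 fold change -0.20 with SE 0.05, adjusted p = 0.00902). Gpi1, glucose-6-phosphate isomerase, was at 425, 418 and 412 CPM in the wild type and 367, 392 and 367 CPM in the mutant. Gpi1 fell (log2 fold change -0.16 with SE 0.05, adjusted p = 0.0222), and lost the call without wild-type replicate 1 or 2 or mutant replicate 1 or 3 (adjusted p up to 0.108). Pfkl, the liver-type phosphofructokinase, was at 164, 156 and 157 CPM in the wild type and 137, 136 and 139.7 CPM in the mutant. Pfkl fell (log2 fold change -0.21 with SE 0.06, adjusted p = 0.0114), with adjusted p = 0.0576 without wild-type replicate 1 and 0.0543 without mutant replicate 2. Pfkp, the platelet-type isoenzyme, was at 60.6, 59.2 and 61.5 CPM in the wild type and 55.0, 53.4 and 54.4 CPM in the mutant. The groups were apart and it passed narrowly (log2 fold change -0.15 with SE 0.05, adjusted p = 0.049), but leaving out any of the 6 libraries ended the call. Pitrm1, which overlaps Pfkp on the opposite strand, averaged 131 CPM, and without strand information reads of the pair cannot be separated.

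Aldolase and the lower, ATP-yielding steps held the enzymes with the lowest adjusted p. Aldoa, the main aldolase of fibroblasts, was at 900.1, 903 and 882 CPM in the wild type and 767, 791 and 796 CPM in the mutant. All mutant libraries were lower (log2 fold change -0.19 with SE 0.05, adjusted p = 0.00609). Aldoc, the brain-type aldolase, was at 7.02, 6.71 and 6.66 CPM in the wild type and 4.54, 5.52 and 5.11 CPM in the mutant. This low-level gene fell by 25.8% (log2 fold change -0.43 with SE 0.11, adjusted p = 0.00709), more than any other enzyme. Tpi1, triosephosphate isomerase, was at 449, 449.7 and 429 CPM in the wild type and 385, 377 and 388 CPM in the mutant. Tpi1 fell, and the highest mutant library lay well below the lowest wild-type library (log2 fold change -0.21 with SE 0.04, adjusted p = 0.00043). Pgk1 was at 606, 622 and 617 CPM in the wild type and 539, 495 and 502 CPM in the mutant. Pgam1, phosphoglycerate mutase, was at 304, 318 and 315 CPM in the wild type and 271, 260.0 and 250.5 CPM in the mutant. These neighbouring steps fell by similar amounts, Pgk1 by 16.7% (log2 fold change -0.26 with SE 0.04, adjusted p = 9.7e-05) and Pgam1 by 16.6% (log2 fold change -0.26 with SE 0.04, adjusted p = 2.4e-05).

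The end of the pathway was also lower. Pkm stood at 1941, 1899 and 1989 CPM in the wild type and 1744, 1639 and 1748 CPM in the mutant. Pkm fell (log2 fold change -0.18 with SE 0.05, adjusted p = 0.0092), though not without mutant replicate 2 (adjusted p = 0.0766). Ldha, which reduces pyruvate to lactate, stood at 925, 934 and 922 CPM in the wild type and 827, 781 and 824 CPM in the mutant. Ldha fell, with the groups apart (log2 fold change -0.19 with SE 0.05, adjusted p = 0.00508). The other 5 enzymes did not pass: log2 fold changes were -0.09 for Hk1, 0.01 for Pfkm, -0.11 for Gapdh, -0.08 for Eno1 and 0.08 for Eno2 (adjusted p 0.153 to 0.892). Gapdh and Eno1 did pass, with adjusted p = 0.00157 and 0.0492, when the 6 libraries of this line were fitted alone. Aldoa, Gapdh, Pgk1, Pgam1, Ldha and, outside the enzymes, Bnip3l have pseudogenes that carry their names. Senp1, Spsb2 and Iffo1 overlap Pfkm, Tpi1 and Gapdh on the opposite strand. Counts of all these members are thus less certain. Pseudogenes with other names were not searched for.

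Among the flux regulators, Pfkfb3, which makes the activator of phosphofructokinase, was at 38.5, 35.2 and 37.8 CPM in the wild type and 29.4, 32.5 and 30.0 CPM in the mutant. Pfkfb3 fell, with the groups apart (log2 fold change -0.28 with SE 0.06, adjusted p = 0.00105). Its relative Pfkfb4 was at 9.95, 10.2 and 9.06 CPM in the wild type and 9.80, 9.53 and 9.11 CPM in the mutant. Pdk1, the kinase that closes pyruvate dehydrogenase, was at 58.4, 63.9 and 58.4 CPM in the wild type and 60.7, 58.0 and 59.1 CPM in the mutant. Both had overlapping groups, with log2 fold changes of -0.04 and -0.02 (adjusted p = 0.81 and 0.789). Of the 5 oxygenases, both collagen prolyl hydroxylase subunits fell. P4ha1 was at 357, 372 and 382 CPM in the wild type and 320.2, 332 and 324 CPM in the mutant. P4ha2 was at 144, 147 and 142 CPM in the wild type and 122, 123 and 118 CPM in the mutant. Both fell, with every mutant library lower, P4ha1 by 12.1% (log2 fold change -0.19 with SE 0.03, adjusted p = 0.000429) and P4ha2 by 16.1% (log2 fold change -0.25 with SE 0.04, adjusted p = 4.4e-05). Egln1 was at 67.7, 68.8 and 65.0 CPM in the wild type and 64.9, 60.6 and 62.6 CPM in the mutant. The HIF prolyl hydroxylases Egln1 and Egln3 and the histone demethylase Kdm3a did not pass (log2 fold change -0.10, -0.13 and -0.02).

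Of the genes for secreted and surface proteins, Vegfa, the vascular growth factor, was at 125, 126 and 120.1 CPM in the wild type and 108, 113 and 109 CPM in the mutant. Vegfa fell, with the groups apart (log2 fold change -0.17 with SE 0.04, adjusted p = 0.00162). Adm, the vasodilator peptide adrenomedullin, was at 24.8, 26.9 and 26.2 CPM in the wild type and 28.2, 30.7 and 32.3 CPM in the mutant. It was the single member that rose (log2 fold change 0.23 with SE 0.06, adjusted p = 0.00779), with adjusted p = 0.0518 without wild-type replicate 1. Car9, the surface carbonic anhydrase, was at 2.78, 2.16 and 3.02 CPM in the wild type and 3.25, 3.81 and 3.19 CPM in the mutant, and it did not pass although its groups were apart (log2 fold change 0.36 with SE 0.16, adjusted p = 0.127).

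Of the 6 mitochondrial and stress genes 5 fell. Bnip3, a mitophagy receptor, was at 61.6, 63.5 and 63.2 CPM in the wild type and 51.7, 51.1 and 52.4 CPM in the mutant. Its relative Bnip3l was at 96.8, 104 and 99.9 CPM in the wild type and 87.9, 84.6 and 88.7 CPM in the mutant. Both fell, with no overlap of the groups, Bnip3 by 17.6% (log2 fold change -0.28 with SE 0.05, adjusted p = 0.000206) and Bnip3l by 13.0% (log2 fold change -0.20 with SE 0.04, adjusted p = 0.00136). Higd1a, a small protein of the respiratory chain, was at 27.4, 28.7 and 27.5 CPM in the wild type and 24.0, 23.4 and 24.2 CPM in the mutant. Higd1a fell (log2 fold change -0.22 with SE 0.07, adjusted p = 0.021), and lost the call in 4 of 6 cases when 1 library was left out (wild-type replicate 2 and each mutant replicate; adjusted p up to 0.0883). Ddit4, an inhibitor of mTORC1, was at 78.1, 76.9 and 68.6 CPM in the wild type and 67.1, 62.3 and 64.0 CPM in the mutant. Ndrg1, a stress-induced gene, was at 57.0, 55.7 and 54.8 CPM in the wild type and 51.4, 48.1 and 46.8 CPM in the mutant. Ddit4 fell by 13.5% (log2 fold change -0.21 with SE 0.05, adjusted p = 0.00505) and Ndrg1 by 12.7% (log2 fold change -0.20 with SE 0.04, adjusted p = 0.00341). Ankrd37 was at 3.24, 2.90 and 2.52 CPM in the wild type and 2.36, 1.67 and 2.17 CPM in the mutant. Its groups were apart, but the adjusted p was 0.0518 (log2 fold change -0.48, SE 0.17). It passed in 6 of 14 alternatives, among them without wild-type replicate 3 or mutant replicate 1. Ankrd37 overlaps Ufsp2 and Lrp2bp on the opposite strand, and the more abundant of these averaged 44.5 CPM.

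In the Ezh2b mutant fewer members changed, and most of those rose. Of 36 members 9 rose, 3 fell and 24 did not pass, beside 14.0% of all tested genes that rose and 12.1% that fell. The count of members that fell was no larger a share than among all genes. The median log2 fold change was 0.04 over the members and -0.01 over all tested genes. The groups stood apart with the mutant higher in 12 members and lower in 4, beside 19.2% and 17.9% of all tested genes. In this line all 16 macrophage and leukocyte markers rose as well: their summed share was 0.0109% to 0.0119% of counts in the wild type and 0.0484% to 0.0522% in the mutant, with none of the 16 at 0 in a whole group. Of the 10 fibroblast markers 8 rose and 1 fell. Of 3 tested endothelial markers Kdr and Tek fell. Cdh5 rose from 0 in the wild type to 0.081 ± 0.025 CPM, a value near the floor, and Tie1 was also at 0 in the wild type. The summed endothelial share was 0.00133% to 0.00146% in the wild type and 0.000585% to 0.000657% in the mutant. Of 4 tested epithelial markers Krt8 and Krt18 rose and Krt19 fell, with a summed share of 0.00238% to 0.00291% and 0.00165% to 0.00192%. Of 4 tested skeletal muscle markers Des rose and Myh1 fell, with 0.00486% to 0.00565% and 0.00681% to 0.00735%, and Myod1 and Myh3 at 0 in both groups. None of these summed shares overlapped between the groups. The part of these cells in the members' changes was not tested.

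The transporters went apart. Slc16a3 was at 63.6, 72.6 and 57.1 CPM in the wild type and 79.1, 72.7 and 74.5 CPM in the mutant. All mutant libraries were above the wild type, the lowest by a narrow margin, and it rose (log2 fold change 0.23 with SE 0.07, adjusted p = 0.011). Without wild-type replicate 3 the log2 fold change was 0.15 (adjusted p = 0.0605), and without mutant replicate 1 the adjusted p was 0.0568. Slc2a3 was at 14.4, 13.3 and 11.2 CPM in the wild type and 8.25, 8.80 and 8.78 CPM in the mutant. It fell by 32.9% (log2 fold change -0.58 with SE 0.10, adjusted p = 0.000236), and without wild-type replicate 3 the log2 fold change was -0.68. Slc2a1 did not pass (log2 fold change 0.02).

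Of the 16 enzymes 1 rose and 1 fell. Hk2 was at 45.2, 49.0 and 42.3 CPM in the wild type and 58.1, 53.6 and 56.7 CPM in the mutant. Every mutant library exceeded every wild-type library, and Hk2 rose by 23.6% (log2 fold change 0.31 with SE 0.05, adjusted p = 7.9e-05). Tpi1 was at 445, 454 and 413 CPM in the wild type and 411, 394 and 402 CPM in the mutant. Its fall was small and the mutant libraries lay just below the lowest wild-type library (log2 fold change -0.12 with SE 0.04, adjusted p = 0.0194). The call on Tpi1 was lost without wild-type replicate 1 or 2 or mutant replicate 2 or 3 (adjusted p up to 0.116). The other 14 enzymes had adjusted p from 0.124 to 0.919 and log2 fold changes from -0.12 (Eno2) to 0.12 (Pfkl).

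This picture of the enzymes depended on Ezh2b wild-type replicate 3. In that library 13 of 16 enzymes were below both other replicates, with a median log2 deviation of -0.16 from their mean, against 0.00 for all tested genes. In Ezh2b mutant replicate 2, the next deepest library, 12 of 16 were also below both others of that group, with a median of -0.04. The part of depth in these values was not tested. The 16 enzymes held 0.956%, 0.995% and 0.851% of counts in wild-type replicates 1, 2 and 3, and 0.917%, 0.874% and 0.893% in the mutant libraries. Replicates 1 and 2 thus lay above all mutant libraries and replicate 3 below them. Without replicate 3, 6 of 16 enzymes fell and 1, Hk2, still rose. Gapdh then had a log2 fold change of -0.12 (adjusted p = 0.00187), Ldha -0.14 (0.00324), Eno1 -0.12 (0.0175), Hk1 -0.11 (0.0176) and Pkm -0.11 (0.0209), and Tpi1 was at -0.16 (0.00075). Leaving out wild-type replicate 2 instead moved calls the other way: Gpi1 (adjusted p = 0.031) and Pfkl (0.00522) then rose. Over all members, 8 rose and 8 fell without wild-type replicate 3. In that fit 2166 of all tested genes rose and 1776 fell.

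**Figure D3:**
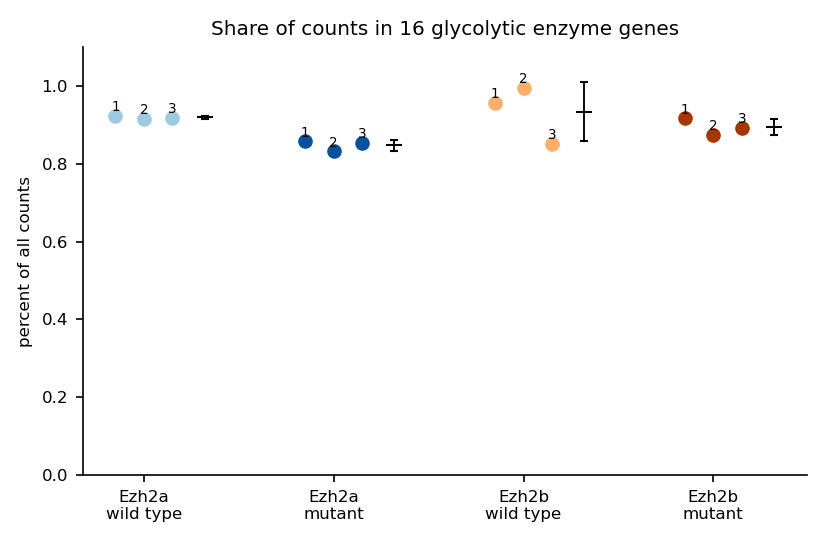
Share of all counts held by the 16 glycolytic enzymes in each of 12 libraries (y axis, percent), with the replicate number above each point and the group mean and SD beside them. The Ezh2a groups are apart; in the Ezh2b wild type replicate 3 lies at 0.851%, below replicates 1 and 2.

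**Figure D4:**
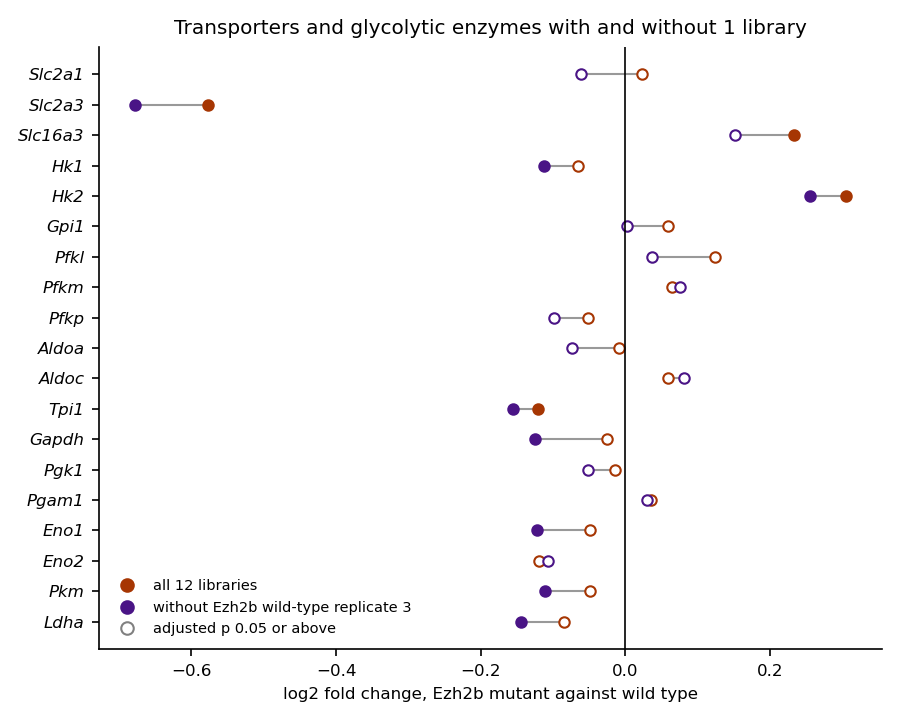
Log2 fold change of the 3 transporters and 16 enzymes in the Ezh2b mutant (x axis) with all 12 libraries and without Ezh2b wild-type replicate 3. Filled points have an adjusted p under 0.05; 6 enzymes are filled below 0 without that library and 1 with it.

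All 3 flux regulators rose. Pfkfb3 was at 20.8, 22.7 and 20.7 CPM in the wild type and 28.9, 31.1 and 29.7 CPM in the mutant. The groups were well apart, and it rose by 40.5% (log2 fold change 0.49 with SE 0.06, adjusted p = 1.6e-06), the largest rise among the members. Pfkfb4 was at 6.59, 7.16 and 6.37 CPM in the wild type and 8.07, 7.77 and 7.99 CPM in the mutant. Pfkfb4 rose (log2 fold change 0.25 with SE 0.08, adjusted p = 0.0353), but leaving out any of 5 of the 6 libraries ended the call (all except wild-type replicate 2; adjusted p up to 0.112), and so did DESeq2 (0.0677). Pdk1 was at 38.8, 38.4 and 37.1 CPM in the wild type and 42.4, 44.3 and 41.9 CPM in the mutant. Pdk1 rose, with the groups apart (log2 fold change 0.17 with SE 0.05, adjusted p = 0.00703). P4ha2 was the 1 oxygenase that rose, at 100.3, 106 and 97.2 CPM in the wild type and 119, 119 and 119 CPM in the mutant (log2 fold change 0.24 with SE 0.04, adjusted p = 5.0e-05). Egln1 was at 59.9, 57.8 and 62.1 CPM in the wild type and 63.6, 67.0 and 63.6 CPM in the mutant. Its groups were apart, but it missed the threshold with all libraries (log2 fold change 0.11, adjusted p = 0.0619) and passed without wild-type replicate 3 (0.15, adjusted p = 0.0175). Egln3, the oxygenase with the largest fold change, was at 5.37, 7.54 and 7.16 CPM in the wild type and 5.62, 5.30 and 5.36 CPM in the mutant, and did not pass with all libraries (log2 fold change -0.31 with SE 0.13, adjusted p = 0.0809). Without wild-type replicate 1, where it was lowest in its group, its adjusted p was 0.0112.

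Vegfa was at 106, 105 and 102 CPM in the wild type and 122, 120.4 and 126 CPM in the mutant. Vegfa rose, with the groups apart (log2 fold change 0.24 with SE 0.04, adjusted p = 3.0e-05). Adm was at 45.8, 47.6 and 43.8 CPM in the wild type and 25.2, 27.3 and 25.6 CPM in the mutant. All mutant libraries were far below the wild type, and Adm fell by 42.9% (log2 fold change -0.81 with SE 0.06, adjusted p = 1.1e-09), the largest change of any member in this mutant. Ndrg1 was at 30.8, 33.2 and 30.8 CPM in the wild type and 40.9, 41.3 and 40.3 CPM in the mutant. Bnip3l was at 82.4, 77.4 and 85.7 CPM in the wild type and 89.2, 90.4 and 89.9 CPM in the mutant. Both rose, Ndrg1 by 29.5% (log2 fold change 0.37 with SE 0.05, adjusted p = 3.7e-06) and Bnip3l by 9.61% (log2 fold change 0.13 with SE 0.04, adjusted p = 0.0207). The call on Bnip3l was lost without wild-type replicate 2 or mutant replicate 2 (adjusted p = 0.0827 and 0.0523). P4ha1, Kdm3a, Car9, Bnip3, Higd1a, Ddit4 and Ankrd37 did not pass.

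The mutants share no library, so members could be placed by both results. Hk2, Slc16a3, Pfkfb3, P4ha2, Vegfa, Bnip3l and Ndrg1 fell in the Ezh2a mutant and rose in the Ezh2b mutant, which 3.18% of all tested genes did. Adm rose in the first and fell in the second, which 2.78% did. Tpi1 fell in both, 14 members fell in the Ezh2a mutant and did not pass in the Ezh2b mutant, 3 passed in the Ezh2b mutant alone, and 10 passed in neither. For these last classes the share of all tested genes was not computed, so their counts only place the members. For every gene with opposite calls except Hk2, the mutant means lay closer to each other than the wild-type means did. Hk2 averaged 41.2 ± 0.11 and 56.1 ± 2.29 CPM in the Ezh2a and Ezh2b mutants, from 47.2 ± 0.81 and 45.5 ± 3.39 CPM in their wild types. Pfkfb3 averaged 30.7 ± 1.65 CPM in the Ezh2a mutant and 29.9 ± 1.13 CPM in the Ezh2b mutant (SD, n = 3), from 37.2 ± 1.76 and 21.4 ± 1.13 CPM in their wild types. P4ha2 averaged 121 ± 2.89 and 119 ± 0.225 CPM in the mutants, from 144 ± 2.80 and 101 ± 4.29 CPM.

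**Figure D5:**
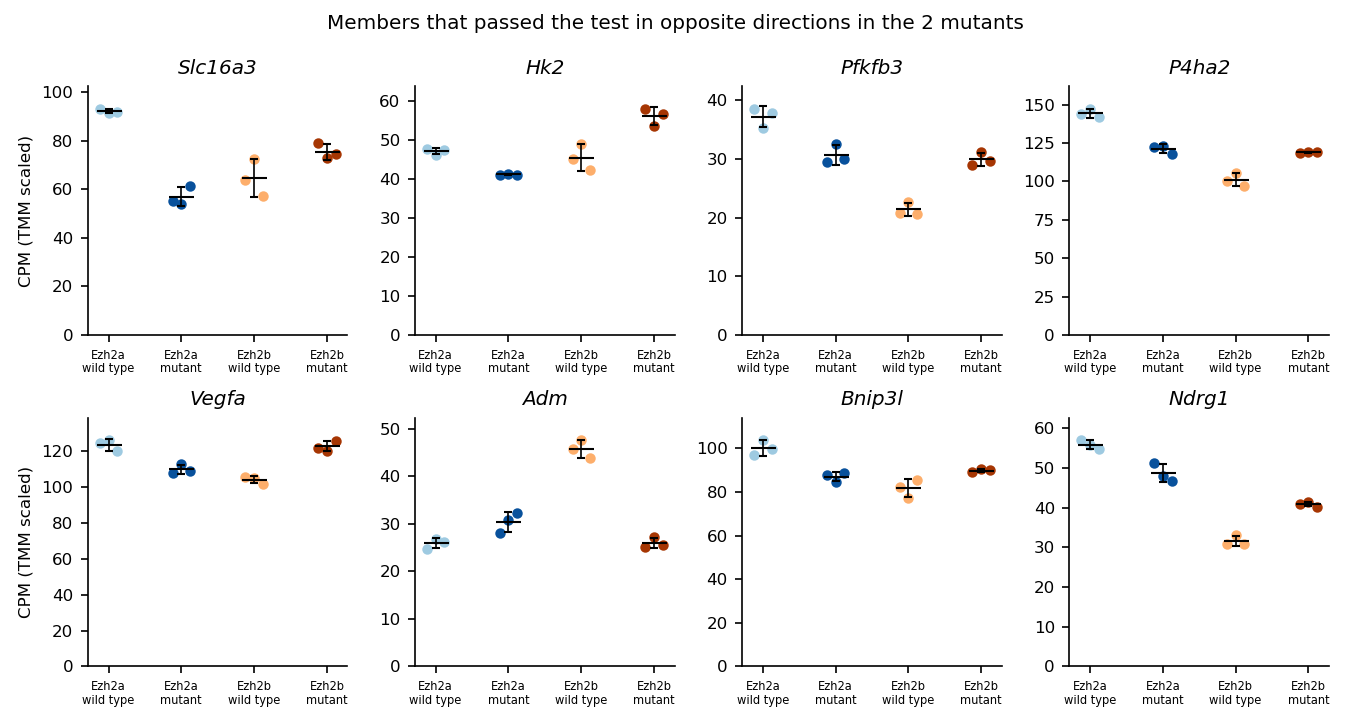
CPM of the 8 members that passed in opposite directions (y axis of each panel, from 0) in the 12 libraries by group (x axis); lines are the mean and SD of 3 libraries. In 7 panels the Ezh2a mutant lies below and the Ezh2b mutant above its own wild type; in the Adm panel the order is the reverse.

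Tested directly, the difference between the effects (Ezh2b minus Ezh2a, on the log2 scale) was above 0 for 17 members and below 0 for 2, beside 14.7% and 11.9% of all tested genes. It was 0.93 (SE 0.09, adjusted p = 2.4e-07) for Slc16a3, 0.77 (SE 0.08, 3.8e-07) for Pfkfb3, 0.57 (SE 0.06, 1.2e-06) for Ndrg1 and 0.50 (SE 0.07, 1.8e-05) for Hk2. The members below 0 were Adm at -1.04 (SE 0.08, 8.4e-09) and Slc2a3 at -0.67 (SE 0.15, 0.00172). Of the 16 enzymes 7 differed: Hk2, Gpi1, Pfkl, Aldoa, Aldoc, Pgk1 and Pgam1. The difference for Tpi1, which fell in both, was 0.09 (adjusted p = 0.257). Scaling by library totals instead of TMM left 12 members above 0 and 3 below, and Aldoa, Aldoc, Gpi1, Pdk1 and Egln1 then lost the call (adjusted p up to 0.18).

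Some members that passed for the difference did not pass in the Ezh2b mutant itself. Gpi1 was at 399, 431 and 363 CPM in the wild type and 421, 409 and 412 CPM in the mutant. Pfkl was at 142, 153 and 121 CPM in the wild type and 154, 150.2 and 148 CPM in the mutant. Aldoa was at 888, 918 and 772 CPM in the wild type and 877, 837 and 848 CPM in the mutant. In each of these 3 enzymes the groups overlapped, and wild-type replicate 3 was the lowest of the 6 libraries. Without that library the difference between the effects shrank from 0.22 to 0.16 for Gpi1, from 0.34 to 0.24 for Pfkl and from 0.18 to 0.11 for Aldoa. Each still passed (adjusted p = 0.024, 0.00098 and 0.0416). Aldoc was at 2.38, 2.07 and 2.29 CPM in the wild type and 2.17, 2.45 and 2.38 CPM in the mutant. Pgk1 was at 586, 622 and 552 CPM in the wild type and 585, 574 and 583 CPM in the mutant. Pgam1 was at 303, 297 and 293 CPM in the wild type and 309, 296 and 309 CPM in the mutant. These groups overlapped as well. P4ha1 was at 339.9, 351 and 344 CPM in the wild type and 360.0, 363 and 355 CPM in the mutant. Bnip3 was at 41.2, 46.4 and 47.6 CPM in the wild type and 46.6, 47.0 and 46.9 CPM in the mutant. P4ha1 was higher in every mutant library (log2 fold change 0.06, adjusted p = 0.207), while the groups of Bnip3 overlapped.

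The promoter windows of the genes that moved in opposite directions are shown because they carry, or lack, the HIF core. They are from RefSeq on GRCm38.p6, 300 bases each, from 250 before to 50 after the start, written 5′ to 3′ on the gene's strand. Capitals mark ACGTG or GCGTG on either strand (CACGT or CACGC where the motif lies on the other strand), and CACGTG counts as ACGTG on both strands. Windows were chosen after the values were seen, and Bnip3l (chr14:66985239-67008877, minus strand) and Ndrg1 (chr15:66929318-66969640, minus strand) are named only. Pfkfb3 and Vegfa have 2 windows each, and the one farther upstream is printed. The other window of Pfkfb3 held each motif 2 times and that of Vegfa each 1 time.
Slc16a3 (chr11:120948817-120949116, plus strand): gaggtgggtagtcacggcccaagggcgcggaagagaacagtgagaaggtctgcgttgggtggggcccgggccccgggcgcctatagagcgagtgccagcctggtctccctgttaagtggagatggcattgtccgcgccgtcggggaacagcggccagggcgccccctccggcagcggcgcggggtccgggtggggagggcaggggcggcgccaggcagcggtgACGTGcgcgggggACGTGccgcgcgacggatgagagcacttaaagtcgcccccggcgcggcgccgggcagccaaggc
Hk2 (chr6:82774405-82774704, minus strand): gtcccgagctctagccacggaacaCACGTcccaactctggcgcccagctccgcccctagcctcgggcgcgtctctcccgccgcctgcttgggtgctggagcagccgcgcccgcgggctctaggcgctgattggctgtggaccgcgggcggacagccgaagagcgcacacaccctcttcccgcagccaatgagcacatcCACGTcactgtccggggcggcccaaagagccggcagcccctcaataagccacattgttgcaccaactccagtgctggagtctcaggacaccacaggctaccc
Pfkfb3 (chr2:11553880-11554179, minus strand): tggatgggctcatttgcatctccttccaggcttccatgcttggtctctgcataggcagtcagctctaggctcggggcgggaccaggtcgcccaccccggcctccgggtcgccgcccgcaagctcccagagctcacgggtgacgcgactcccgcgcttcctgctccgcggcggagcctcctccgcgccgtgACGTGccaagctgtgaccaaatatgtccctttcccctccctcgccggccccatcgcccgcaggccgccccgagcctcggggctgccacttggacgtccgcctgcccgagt
P4ha2 (chr11:54100674-54100973, plus strand): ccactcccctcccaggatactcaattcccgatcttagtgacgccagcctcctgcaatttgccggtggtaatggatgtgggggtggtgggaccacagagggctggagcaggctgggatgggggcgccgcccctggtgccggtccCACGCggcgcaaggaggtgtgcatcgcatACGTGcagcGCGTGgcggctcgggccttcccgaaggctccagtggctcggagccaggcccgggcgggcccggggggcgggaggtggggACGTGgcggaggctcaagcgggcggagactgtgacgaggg
Vegfa (chr17:46032328-46032627, minus strand): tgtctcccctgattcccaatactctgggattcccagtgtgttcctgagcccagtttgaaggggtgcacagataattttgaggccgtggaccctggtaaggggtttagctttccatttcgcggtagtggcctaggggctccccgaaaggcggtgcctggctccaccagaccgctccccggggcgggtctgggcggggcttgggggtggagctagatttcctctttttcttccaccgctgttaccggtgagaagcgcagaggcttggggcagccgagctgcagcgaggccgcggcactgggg
Adm (chr7:110627407-110627706, plus strand): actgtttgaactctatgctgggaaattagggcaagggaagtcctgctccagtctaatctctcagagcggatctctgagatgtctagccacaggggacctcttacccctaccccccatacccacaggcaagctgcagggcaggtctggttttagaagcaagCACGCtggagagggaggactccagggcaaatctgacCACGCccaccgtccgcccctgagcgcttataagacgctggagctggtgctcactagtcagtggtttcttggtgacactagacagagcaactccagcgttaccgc
Slc16a3 and Hk2 each held ACGTG 2 times and Pfkfb3 held it 1 time, while P4ha2 held each motif 2 times. The window of Adm, the gene that moved against the others, held GCGTG 2 times and no ACGTG, and the printed Vegfa window held neither. Over 33 members with windows in the table, 53.1% of 49 windows held ACGTG and 77.6% held either motif, beside 19.6% and 43.8% of all 32851 windows. A match describes letters in a window and no binding was measured.

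The wild types of the 2 lines differed in many members. In the Ezh2b wild type 5 members were higher and 15 lower than in the Ezh2a wild type, beside 20.4% and 21.8% of all tested genes. This comparison shares its libraries with both mutant comparisons, and line, litter and handling cannot be told apart in it. Aldoc was at 7.02, 6.71 and 6.66 CPM in the Ezh2a wild type and 2.38, 2.07 and 2.29 CPM in the Ezh2b wild type, the largest gap among the members (log2 fold change -1.59 with SE 0.12, adjusted p = 1.0e-09). Car9 was at 2.78, 2.16 and 3.02 CPM in the Ezh2a wild type and 1.51, 1.34 and 1.37 CPM in the Ezh2b wild type (log2 fold change -0.92 with SE 0.17, adjusted p = 0.000231). All Ezh2b wild-type libraries were lower for both genes. Ndrg1, Pfkfb3, Pdk1 and Slc16a3, whose values are given above, were lower by 0.83, 0.80, 0.66 and 0.52 on the log2 scale. Adm was higher in the Ezh2b wild type (log2 fold change 0.82 with SE 0.06, adjusted p = 3.7e-10), as was Slc2a3 (log2 fold change 0.39 with SE 0.10, adjusted p = 0.00429).

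Among the rest, Bnip3 was at 61.6, 63.5 and 63.2 CPM in the Ezh2a wild type and 41.2, 46.4 and 47.6 CPM in the Ezh2b wild type. Pfkl was at 164, 156 and 157 CPM in the Ezh2a wild type and 142, 153 and 121 CPM in the Ezh2b wild type. Egln1 was at 67.7, 68.8 and 65.0 CPM in the Ezh2a wild type and 59.9, 57.8 and 62.1 CPM in the Ezh2b wild type. All 3 were lower in the Ezh2b wild type (log2 fold change -0.47, -0.20 and -0.16). Without Ezh2b wild-type replicate 3 the value for Pfkl was -0.11 (adjusted p = 0.0265). P4ha1 was at 357, 372 and 382 CPM in the Ezh2a wild type and 339.9, 351 and 344 CPM in the Ezh2b wild type. Ankrd37 was at 3.24, 2.90 and 2.52 CPM in the Ezh2a wild type and 2.22, 1.86 and 2.07 CPM in the Ezh2b wild type. Both were lower, but P4ha1 lost the call without Ezh2a wild-type replicate 2 or 3 or Ezh2b wild-type replicate 1 (adjusted p up to 0.104), and Ankrd37 without replicate 1 or 2 of the Ezh2a or 2 or 3 of the Ezh2b wild type (up to 0.114). Ddit4 was at 78.1, 76.9 and 68.6 CPM in the Ezh2a wild type and 84.7, 89.1 and 93.0 CPM in the Ezh2b wild type. Eno2 was at 21.8, 20.6 and 22.3 CPM in the Ezh2a wild type and 26.2, 27.4 and 27.1 CPM in the Ezh2b wild type. Egln3 was at 4.44, 5.20 and 5.35 CPM in the Ezh2a wild type and 5.37, 7.54 and 7.16 CPM in the Ezh2b wild type. These were higher in the Ezh2b wild type (log2 fold change 0.26, 0.32 and 0.43), Egln3 not without Ezh2a replicate 1 (adjusted p = 0.0685) or Ezh2b replicate 2 (0.051). Vegfa, P4ha2, Bnip3l and Pfkfb4, whose libraries are also given above, were lower, with log2 fold changes of -0.25, -0.52, -0.29 and -0.54. Without Ezh2b wild-type replicate 3, 11 members were higher and 14 lower, and Gapdh, Eno1, Hk1, Ldha, Pfkp and Pkm were among the higher, while Gpi1 and Pgk1 were among the lower without replicate 2. The shares of all tested genes given for the wild types belong to the fit with all libraries and cannot be set beside these counts. The macrophage and leukocyte markers differed too: all 16 were lower in the Ezh2b wild type, at 0.0112% of counts on average against 0.175%. Of the fibroblast markers 8 of 10 were lower, among them Dcn (-1.58) and Lum (-1.46 on the log2 scale), and 1 was higher, with a summed share of 5.54% to 5.98% against 6.24% to 6.39%. Of 4 tested skeletal muscle markers 2 were higher and Des was lower, with 0.00532% against 0.0124% on average. Of 4 tested epithelial markers 3 were lower and Krt19 was higher. Of 3 tested endothelial markers Tek was higher and Cdh5, a low-level gene, was lower (0 against 0.43 ± 0.12 CPM). The summed shares of both types overlapped. The part of these cells in the members' values was not tested.

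Other genes of the pathway were followed in lists chosen with earlier results of these data known, and a value in parentheses here is a log2 fold change unless a p is named. The counts stand beside the 10.2% of all tested genes that fell and 9.61% that rose in the Ezh2a mutant, and the 12.1% and 14.0% in the Ezh2b mutant. For the HIF subunits, the pyruvate genes and the further isoenzymes the counts in the Ezh2b mutant were, in each direction, no larger a share than among all genes. Of 11 HIF subunits and regulators, Epas1 (HIF-2 alpha) and Arnt2 rose in the Ezh2a mutant, by 0.58 and 0.40 on the log2 scale, while Hif1a (-0.23, adjusted p = 8.9e-05) and Cited2 (-0.29) fell. In the Ezh2b mutant Epas1 rose by 0.54 and Cited2 fell by 0.36. Hif1a averaged 472 ± 13.2 CPM in the Ezh2a wild type, 404 ± 1.58 in its mutant and 349 ± 12.9 in the Ezh2b wild type (SD, n = 3). Of 31 further HIF targets tested, 12 fell and 1 rose in the Ezh2a mutant, led by Angptl4 (-0.85), a secreted inhibitor of lipoprotein lipase, and the median log2 fold change was -0.07. In the Ezh2b mutant 9 rose and 5 fell, with Car12 (-1.15), Pgf (0.70), Stbd1 (0.64) and Stc2 (-0.61) changing most and a median of 0.04.

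Genes that decide between oxidation and fermentation of pyruvate were a separate list. Of 18, 6 rose and 1 fell in the Ezh2a mutant, with a median log2 fold change of 0.09, and the median was -0.08 in the Ezh2b mutant. Pdk4, which inhibits pyruvate dehydrogenase, rose from 3.15 ± 0.30 to 6.54 ± 0.25 CPM (log2 fold change 1.05, adjusted p = 1e-06). Pdp1, the phosphatase that reactivates the same enzyme, rose by 0.70 on the log2 scale. Ldhb, the heart-type lactate dehydrogenase, rose by 0.57, where Ldha fell. Slc16a7, a monocarboxylate transporter, rose by 0.46. In the Ezh2b mutant Ldhb rose (0.16) and Slc16a1 (-0.20) and Dld (-0.11) fell. Of 13 further isoenzymes and regulators tested, Bpgm (-0.37), Tigar (-0.28) and Eno3 (-0.27) were lower in the Ezh2a mutant and passed, and 0 rose. In the Ezh2b mutant Bpgm fell by 0.19 and Hk3, a hexokinase of myeloid cells, rose from 1.06 ± 0.28 to 4.63 ± 0.72 CPM (log2 fold change 2.13), beside the rise of all 16 macrophage and leukocyte markers. Of 8 genes of the pentose phosphate pathway, H6pd (-0.22) and Pgd (-0.21) fell in the Ezh2a mutant and Rpia (-0.53), G6pdx (-0.18) and Rpe (-0.16) in the Ezh2b mutant. Of 2 tested genes of gluconeogenesis neither passed.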

How the data were processed

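The table the authors deposited holds raw counts for each gene symbol and library. The tools named per the submitters' processing notes are edgeR 4.2.1, fastp 0.21.0, StringTie 2.1.5 and HISAT2 2.1.0, with the genome build GRCm38 (mm10). Neither the counting program nor the annotation release or strand setting is given in the sources used here. Per the labels' protocols, RNA was selected with oligo-dT beads. No step that marks strand is named there.

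All 12 libraries were fitted with 1 mean per group (8 residual degrees of freedom) in edgeR 4.0.16 (R 4.3.3), after filterByExpr by group and TMM scaling (factors 0.977 to 1.03). The test was edgeR's quasi-likelihood test, adjusted by Benjamini-Hochberg over 15708 genes, with calls at 0.05. The SE was taken as the absolute log2 fold change over the root of its F statistic. The procedure was tested on simulated data for the Ezh2a comparison alone. Most falls of members in that comparison were smaller than the smallest fold simulated, so the simulation does not cover them. Exon lengths and positions are from GENCODE M21, matched by symbol. For the chi-square between replicates, genes with at least 20 counts in a pair were used. Alternatives covered DESeq2 1.42.0, other scalings, filters, samples in the fit, counts divided by 2, a replicate block and each library left out.

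The members and lists were chosen with earlier results of these data known, so no list was given a p. Every member that changed is given by library in the groups compared, and from each other list at most 4 genes per comparison are named, those with the largest change that passed. A gene that the rule would name is not reported here.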

Additional observations from a re-analysis of the deposited data

Results flagged for a closer look

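The difference between the effects (Ezh2b minus Ezh2a, log2 scale, edgeR's quasi-likelihood test over all tested genes) passed for 19 members, which flagged each of them. It was above 0 among transporters and flux regulators for Slc16a3 (0.93), Pfkfb3 (0.77) and Pdk1 (0.20). Among the enzymes it was above 0 for Hk2 (0.50), Aldoc (0.49), Pfkl (0.34), Pgam1 (0.30), Pgk1 (0.25), Gpi1 (0.22) and Aldoa (0.18). The oxygenases P4ha2 (0.49), P4ha1 (0.25) and Egln1 (0.21) followed, with Vegfa (0.41). Among mitochondrial and stress genes it was above 0 for Ndrg1 (0.57), Bnip3l (0.33) and Bnip3 (0.33). It was below 0 for Adm (-1.04) and Slc2a3 (-0.67). Leaving out 1 library ended the call on Aldoa in 9 of 12 cases (each Ezh2a library and each Ezh2b mutant library, adjusted p up to 0.128). It ended that on Aldoc in 9 (all except Ezh2a mutant replicate 2, Ezh2b wild-type replicate 1 and Ezh2b mutant replicate 1, up to 0.0915). The call on Gpi1 was lost without Ezh2a mutant replicate 1 or 3 or Ezh2b mutant replicate 1 (up to 0.0553). That on Pdk1 was lost without Ezh2a wild-type replicate 2, Ezh2a mutant replicate 2 or Ezh2b mutant replicate 2 (up to 0.0899). Scaling by library totals instead of TMM ended the calls on Aldoa (adjusted p = 0.18), Pdk1 (0.153), Egln1 (0.115), Gpi1 (0.0817) and Aldoc. Calls appeared for Higd1a without Ezh2b wild-type replicate 3, for Ddit4 without Ezh2a wild-type replicate 3, for Eno2 without Ezh2a mutant replicate 1, and for Ldha, Pkm and Slc2a1 without Ezh2b wild-type replicate 2.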

How the results depend on the processing

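Of 2196 recomputed values of single members, 2064 kept their side of the threshold, 92 lost the call, 40 gained it, and 0 reversed while called in either fit. A further 46 values that passed in neither fit changed sign and are counted among the 2064. Calls held in every alternative run for 16 of 23 members in the Ezh2a mutant, 8 of 12 in the Ezh2b mutant, 14 of 19 for the difference and 17 of 20 between wild types. Leaving out 1 library each moved members that rose in the Ezh2a mutant from 0 to 1, members that fell in the Ezh2b mutant from 2 to 8, and members higher in the Ezh2b than the Ezh2a wild type from 4 to 11. The 8 and the 11 come from leaving out Ezh2b wild-type replicate 3 and the 0 from Ezh2a wild-type replicate 1. The cause was not tested. With the replicate block, the Ezh2a mutant had 1 member up and 21 down and the Ezh2b mutant 9 up and 3 down, while the difference gave 16 above 0 and 2 below. Deviations of genes from their group mean correlated at -0.022 to 0.022 between same-numbered wild-type and mutant libraries of a line. They thus gave no sign of pairing by number, which does not settle whether such libraries shared a litter or handling. Library totals without TMM moved the balance of all genes: in the Ezh2a mutant 2061 were then higher and 1117 lower (1509 and 1609 with TMM), 1910 and 2525 in the Ezh2b mutant (2200 and 1905), and 1723 and 2787 for the difference (2305 and 1863). Members then were 1 and 18, 7 and 3, and 12 and 3. A fit of only the compared groups does not exist for the difference, which uses all 4. Where a read pair was counted as 2 reads, the totals overstate the depth.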
